A study of Homo sapiens with 6 samples.

Results

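The genes examined were 9 that mark differentiation toward monocytes: CD14, ITGAM, ITGAX, CD68, FCGR1A, FCN1, CYBB, TLR2 and TLR4. They were chosen by name, and they are 9 of the 20007 protein-coding genes with a canonical transcript in the annotation. At each of them, H3K27ac peaks were counted and measured in the gene body plus 20 kb to each side, called the locus here, and in a promoter window of 2500 bases to each side of the canonical transcription start site.

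H3K27ac, acetylation of lysine 27 on histone H3, was profiled by CUT&Tag in Kasumi-1 and MV4-11, lines from human acute myeloid leukemia (AML). Kasumi-1 carries the RUNX1::RUNX1T1 fusion, and MV4-11 carries a KMT2A fusion and has monocytic features. In each line 1 library came from control cells (NC, labelled untreated; the study's other experiments used a control hairpin) and 1 from cells with ANP32B knockdown (sh-ANP32B). The study made its knockdown lines with lentivirus and selected them with puromycin, and neither the hairpin used for these libraries nor the handling of their NC cells is given in the sources used here. Of the 6 samples, the 2 IgG libraries were not analysed here.

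H3K27ac is deposited by the acetyltransferases CBP and p300 and marks active promoters and enhancers, so that its peaks around a gene show where such elements are acetylated. Monocytes arise from myeloid progenitors under transcription factors that include PU.1 and C/EBP proteins. As they mature they gain receptors for microbial products, adhesion molecules of the beta-2 integrin family, receptors for antibody, and the machinery to engulf and oxidize what they take up. A peak reports acetylated chromatin, not the RNA or the protein of the gene.

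Each group had 1 library, made by merging replicates before peaks were called, so there was no spread between replicates and no test, and every difference below describes these libraries. The lists held 22136 to 24523 peaks and covered 23004402 to 33674144 bases. The covered length of the sh-ANP32B list was 1.03 times that of the NC list in Kasumi-1 (33674144 against 32712240 bases) and 0.825 times in MV4-11 (23004402 against 27891707 bases). Below, 4 values in a row give Kasumi-1 NC and sh-ANP32B and then MV4-11 NC and sh-ANP32B. The narrowest peak was 357, 354, 289 and 275 bases. The lists give no height or score, and the depth of each library is unknown. Of markers of other cell types, promoter peaks were present at 5, 5, 5 and 3 of 6 granulocyte precursor genes, 3, 3, 1 and 1 of 6 B cell genes, 0 of 5 T cell genes in every library, and 1, 1, 1 and 0 of 5 erythroid genes. Of all protein-coding genes, 47.7%, 45.3%, 35.8% and 28.6% had one. The granulocyte precursor share was 83.3%, 83.3%, 83.3% and 50%, against 77.8%, 66.7%, 66.7% and 66.7% of the 9 genes. The part of other cell types in the results was not tested.

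A promoter peak was present at 7, 6, 6 and 6 of the 9 genes, beside 47.7%, 45.3%, 35.8% and 28.6% of all protein-coding genes. At least 1 peak lay at the locus of 8, 8, 9 and 9 of them, beside 66.1%, 65.1%, 61.5% and 55.9% of all genes. The median of bases under peaks at the locus was 3236, 2464, 1849 and 3388 over the 9 genes, against 1340, 1286, 787 and 446 over all genes. CD68 had the most bases at its locus in both Kasumi-1 libraries and TLR4 in both MV4-11 libraries.

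**Figure D1:**
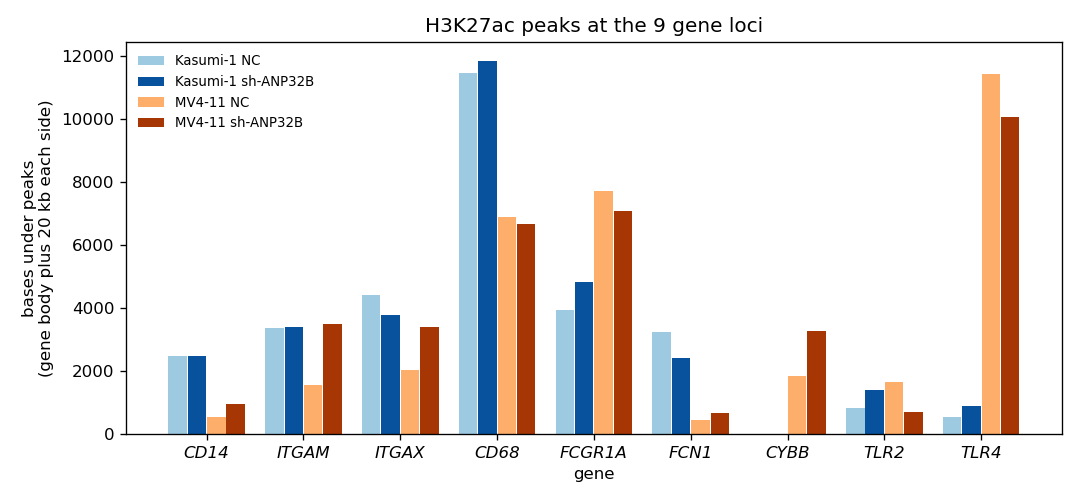
Bases under H3K27ac peaks at each locus (gene body plus 20 kb to each side) in the 4 libraries. TLR4 stands at 535 and 907 bases in Kasumi-1 and 11434 and 10071 in MV4-11, and CYBB at 0 in both Kasumi-1 libraries.

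The sequence before the start site differed among the genes. Promoters were taken from RefSeq on GRCh38.p14, where 8 of the 9 genes matched (ITGAX did not), and 250 bases before the start are shown for 6 genes whose peaks are described below, on the gene's own strand. Capitals mark matches to GAGGAA (the core of the PU.1 motif, TTCCTC on the other strand), TTNNGNAA (C/EBP) and TGTGGT (RUNX), searched on both strands. In the 300 bases from 250 before to 50 after the start, GAGGAA was found in 7 of the 8 promoters, against 27.6% of 15345 promoters, and TLR2 was the one without it. TLR4 held 4 matches, at 224, 171, 99 and 40 bases before its start. TTNNGNAA was in 3 (CD14, CD68 and FCN1; 30.3% of all promoters) and TGTGGT in 1 (ITGAM; 10.9%), where it lies after the start and shares a base with a GAGGAA match. TGANTCA, the AP-1 motif, was in 2 (CD14 and CD68; 5.74%), and the GC box GGGCGG in 3 (ITGAM, TLR2 and TLR4; 59.2%). These are matches of letters, not binding measured in the cells.
TLR4 (chr9:117704153-117704402): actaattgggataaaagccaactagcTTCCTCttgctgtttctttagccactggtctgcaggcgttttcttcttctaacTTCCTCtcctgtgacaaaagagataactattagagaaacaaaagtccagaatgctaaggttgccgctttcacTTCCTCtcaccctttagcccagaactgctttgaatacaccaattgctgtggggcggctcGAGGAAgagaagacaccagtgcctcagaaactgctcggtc
TLR2 (chr4:153684030-153684279): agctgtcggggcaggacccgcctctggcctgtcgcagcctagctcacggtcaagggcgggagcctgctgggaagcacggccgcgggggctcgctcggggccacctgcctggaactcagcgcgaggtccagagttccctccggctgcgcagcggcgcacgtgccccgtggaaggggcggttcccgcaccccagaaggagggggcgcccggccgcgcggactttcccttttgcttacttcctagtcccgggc
CD14 (chr5:140633176-140633425): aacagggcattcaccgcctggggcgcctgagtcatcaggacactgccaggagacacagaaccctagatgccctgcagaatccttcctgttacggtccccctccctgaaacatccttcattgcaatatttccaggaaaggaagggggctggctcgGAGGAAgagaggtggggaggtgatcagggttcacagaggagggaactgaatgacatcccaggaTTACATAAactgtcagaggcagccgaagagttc
ITGAM (chr16:31259725-31259974): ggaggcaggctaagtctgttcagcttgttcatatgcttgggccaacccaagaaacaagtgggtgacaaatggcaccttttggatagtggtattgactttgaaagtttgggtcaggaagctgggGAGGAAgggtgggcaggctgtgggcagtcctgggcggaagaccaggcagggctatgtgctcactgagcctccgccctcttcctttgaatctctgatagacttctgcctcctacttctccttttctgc
FCN1 (chr9:134917913-134918162): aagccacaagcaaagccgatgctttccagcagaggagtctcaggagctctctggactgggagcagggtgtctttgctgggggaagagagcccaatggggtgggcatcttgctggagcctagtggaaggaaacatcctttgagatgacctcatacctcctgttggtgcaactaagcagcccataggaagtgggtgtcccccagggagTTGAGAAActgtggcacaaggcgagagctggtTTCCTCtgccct
CYBB (chrX:37779809-37780058): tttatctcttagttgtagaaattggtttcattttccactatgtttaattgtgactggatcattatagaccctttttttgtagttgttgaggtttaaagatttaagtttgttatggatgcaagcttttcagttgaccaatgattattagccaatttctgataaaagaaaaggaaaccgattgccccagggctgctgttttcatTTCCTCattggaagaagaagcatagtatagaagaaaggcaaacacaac

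TLR4, the receptor for bacterial lipopolysaccharide (ENSG00000136869.16, hg38 chromosome 9, 117704175 to 117724735, plus strand), differed by the most bases between the lines. Its locus had 535, 907, 11434 and 10071 bases under peaks, in 1, 2, 8 and 5 peaks. Both MV4-11 libraries were far above both Kasumi-1 libraries. MV4-11 NC had 21.4 times the bases of Kasumi-1 NC, a larger ratio than at 99.97% of tested genes with peaks in both libraries. In Kasumi-1 the promoter peak, over the start, exon 1 and intron 1, was 535 bases in NC and 522 in sh-ANP32B. In MV4-11 it was 2241 bases in NC and 2275 in sh-ANP32B. The annotation gives the same start to a readthrough gene, ENSG00000285082, so the peaks there cannot be assigned to TLR4 alone. Broad peaks also lay over exon 3, the last exon, and past the end of the gene in MV4-11. The widest was 3639 bases in NC, at 117716644 to 117720282, with a partner of 3461 bases after knockdown at 117716468 to 117719928. The next was 3016 and 2775 bases. When all peaks but those lying wholly inside a promoter window were joined across gaps of up to 12.5 kb, the TLR4 domain of MV4-11 NC ranked 308 of 9997 by summed peak width, and that of MV4-11 sh-ANP32B 326 of 9273. In MV4-11 the knockdown library had 0.881 times the bases of NC, although scaled to the covered length of the lists it had 911 more, and NC peaks of 647, 322 and 330 bases there had no partner in sh-ANP32B and a 461-base peak was 904 bases. The Kasumi-1 ratio was 1.70, and the additional bases were those of a 385-base peak 23087 bases downstream of the start that was in sh-ANP32B only.

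TLR2, which recognizes bacterial lipoproteins together with TLR1 or TLR6 (ENSG00000137462.9, chromosome 4, 153684070 to 153706260, plus strand), differed with knockdown in opposite directions in the lines. Its locus had 832, 1413, 1661 and 716 bases under peaks. It was higher in sh-ANP32B in Kasumi-1 (1.70 times) and lower in sh-ANP32B in MV4-11 (0.431 times). The Kasumi-1 promoter peak measured 832 bases in NC, at 153684201 to 153685032, and 1223 bases after knockdown, at 153683840 to 153685062. In MV4-11 NC a 611-base peak lay in intron 1, 215 bases past the start, and MV4-11 sh-ANP32B had no promoter peak. The second MV4-11 peak, at the 3′ end of the gene, was 1050 bases in NC and 716 in sh-ANP32B. The other peak of Kasumi-1 sh-ANP32B, 388 bases wide, lay downstream and nearest the start of RNF175. The TLR2 promoter had the highest GC content of the 8, 72.7% with 33 CpG sites over the 300 bases, where the median of all promoters is 63.0% and 22.

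CD14, the co-receptor that hands lipopolysaccharide to TLR4 (ENSG00000170458.15, chromosome 5, 140631728 to 140633700, minus strand), had no promoter peak in any library. Its locus had 2481, 2464, 557 and 943 bases under peaks. All of these lay upstream, in or near the promoters of neighbours: TMCO6 for the nearer site, IK and NDUFA2 for the farther. The nearer peak was 1455, 1437, 557 and 384 bases, narrower in both MV4-11 libraries than in both Kasumi-1 libraries. The higher locus value in MV4-11 sh-ANP32B (1.69 times NC) came from a 559-base peak at the IK and NDUFA2 promoters. Counting each peak only for the gene with the nearest start, CD14 had 0 bases in every library.

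**Figure D2:**
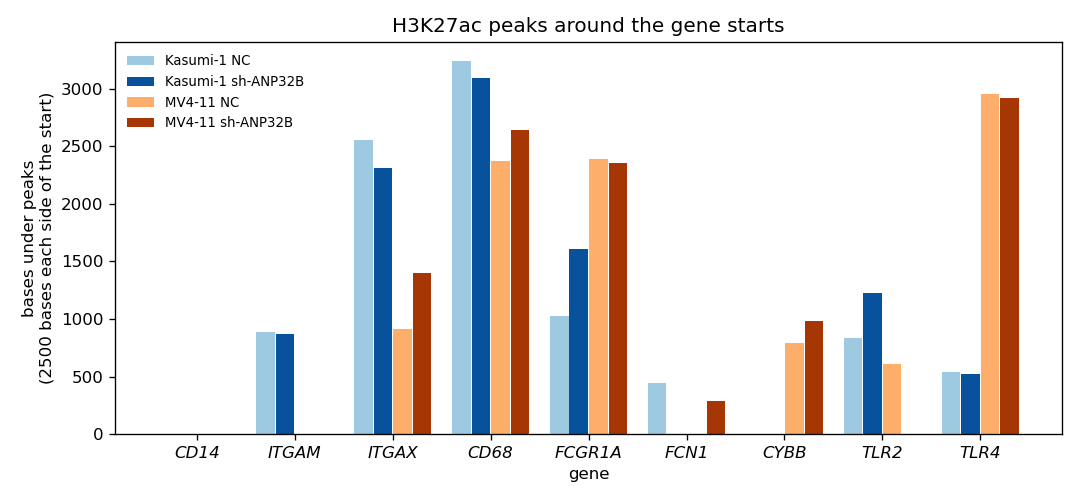
Bases under H3K27ac peaks within 2500 bases of the canonical start in the 4 libraries. CD14 is at 0 in all libraries, TLR4 is at 535 and 522 bases in Kasumi-1 and 2951 and 2917 in MV4-11, and TLR2 is at 0 in MV4-11 sh-ANP32B.

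ITGAM and ITGAX encode the alpha chains CD11b and CD11c, which pair with the beta-2 chain ITGB2 in receptors for complement and adhesion ligands. They are neighbours on chromosome 16, ITGAM at 31259967 to 31332892 (ENSG00000169896.18) and ITGAX at 31355134 to 31382999 (ENSG00000140678.17), both on the plus strand, and their loci share sites just upstream of ITGAX. The ITGAM locus had 3366, 3399, 1564 and 3509 bases under peaks. In NC the MV4-11 value was 0.465 times that of Kasumi-1. The MV4-11 sh-ANP32B value was 2.24 times that of MV4-11 NC, a larger ratio than at 98.6% of tested genes with peaks in both libraries. The ITGAM promoter peak was in Kasumi-1 only, at 885 bases in NC and 870 in sh-ANP32B.

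In MV4-11 sh-ANP32B, ITGAM had 3 peaks with no counterpart in MV4-11 NC. They were 560 bases over exon 3 (31265220 to 31265779), 417 bases in intron 14 (31301906 to 31302322), and 463 bases at a site shared with ITGAX (31350044 to 31350506), where Kasumi-1 NC had 501 bases. The upstream peak was 674 bases in MV4-11 NC and 816 in sh-ANP32B, and the widest, between the genes, was 1221 and 1660 bases. The central 300 bases of the exon 3 peak are shown because neither Kasumi-1 library nor MV4-11 NC had a peak there. Capitals mark TGTGGT, which 21.4% of all MV4-11 sh-ANP32B peaks held in their central 300 bases. A TGANTCA match, held by 14% of those peaks, is left in small letters. The intron 14 peaks of ITGAM and ITGAX were also in MV4-11 sh-ANP32B only and are not shown. Both hold GAGGAA and TTNNGNAA matches there (32.8% and 46.3% of all peaks), which the exon 3 site lacks.
ITGAM exon 3 site (hg38, chr16:31265350-31265649, plus strand): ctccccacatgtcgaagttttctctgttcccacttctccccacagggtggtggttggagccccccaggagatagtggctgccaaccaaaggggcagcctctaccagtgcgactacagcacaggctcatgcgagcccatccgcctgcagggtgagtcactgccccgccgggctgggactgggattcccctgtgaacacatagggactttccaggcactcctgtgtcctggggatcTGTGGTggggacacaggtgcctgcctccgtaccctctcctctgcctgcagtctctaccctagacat

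The ITGAX locus had 4411, 3773, 2024 and 3388 bases. The NC value in MV4-11 was 0.459 times that in Kasumi-1, and the knockdown-to-control ratio was 0.855 in Kasumi-1 and 1.67 in MV4-11. In the promoter window the 4 libraries had 2556, 2314, 912 and 1398 bases. The peak at the start, at 31354174 to 31355894 in Kasumi-1 NC, was 1721, 1335, 364 and 774 bases wide. A 491-base intron 14 peak (31367844 to 31368334) was in MV4-11 sh-ANP32B only, and a 439-base peak near ITGAD in MV4-11 NC only. The domain between ITGAM and ITGAX, whose widest peak reaches into the ITGAX promoter window, ranked 4782 of 9997 in MV4-11 NC and 2382 of 9273 in sh-ANP32B.

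**Figure D3:**
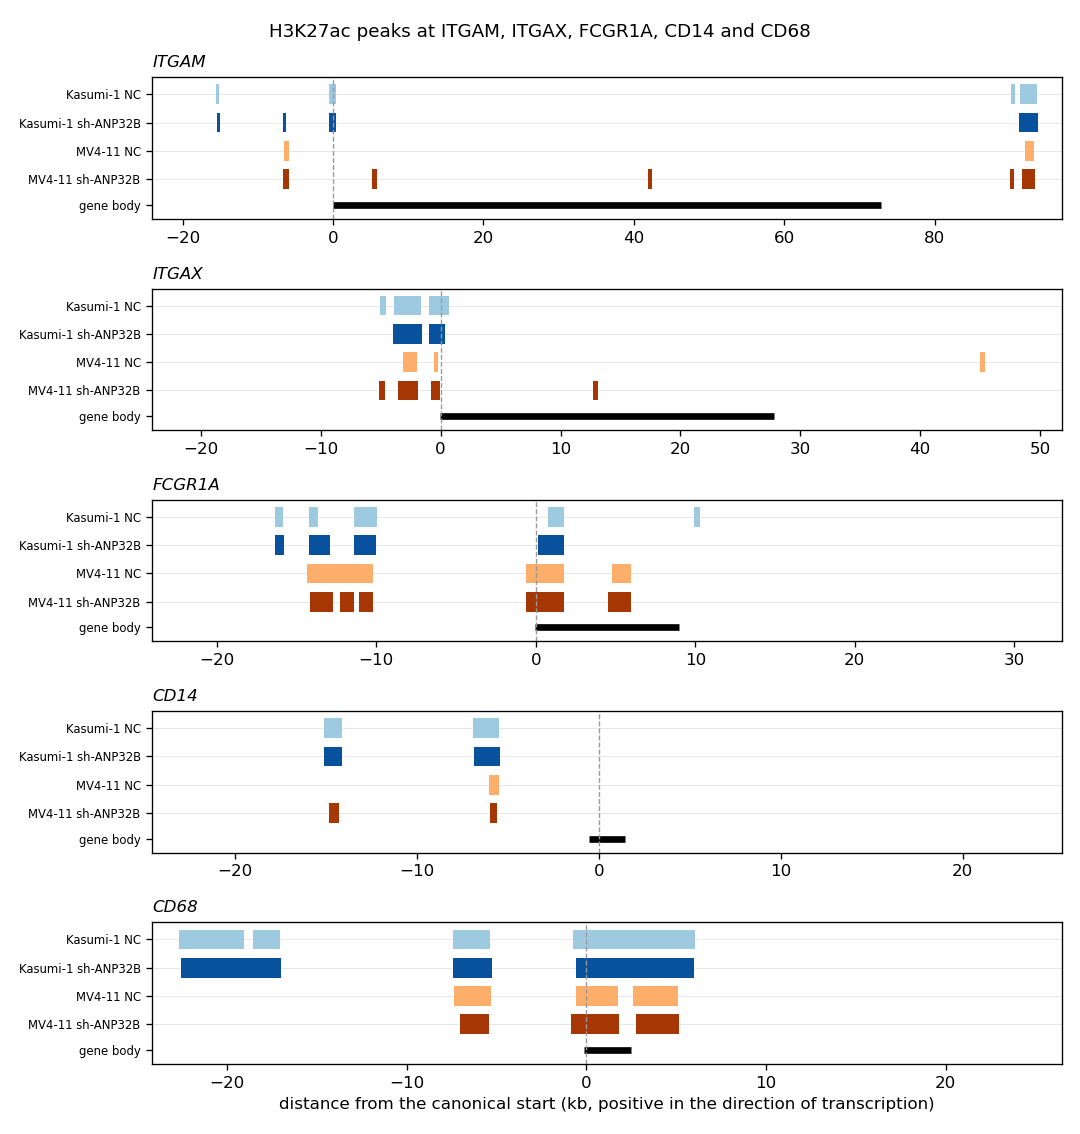
Positions of H3K27ac peaks at 5 of the 9 loci as distance from the transcription start, with 1 row for each library. At ITGAM, the peak at the start is in both Kasumi-1 libraries and neither MV4-11 library, and MV4-11 sh-ANP32B has 5 peaks where MV4-11 NC has 2.

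CYBB encodes gp91phox, the catalytic subunit of the phagocyte NADPH oxidase (ENSG00000165168.9, chromosome X, 37780018 to 37813461, plus strand), and had peaks in MV4-11 only. Its locus had 0, 0, 1849 and 3265 bases under peaks. The MV4-11 sh-ANP32B value was 1.77 times that of NC, a larger ratio than at 96.8% of tested genes with peaks in both libraries. Both MV4-11 libraries had 3 peaks. The upstream peak was 346 bases in NC and 693 in sh-ANP32B, and the peak over exon 2 was 922 and 982 bases. The largest difference was in intron 3, where the NC peak measured 581 bases at 37787044 to 37787624 and the knockdown peak 1590 bases at 37786616 to 37788205. The central 300 bases of the knockdown peak are shown because it carried most of the difference, with C/EBP and RUNX matches in capitals. Of all MV4-11 sh-ANP32B peaks, 46.3% held the C/EBP letters and 21.4% the RUNX letters in their central 300 bases.
CYBB intron 3 site (hg38, chrX:37787261-37787560, plus strand): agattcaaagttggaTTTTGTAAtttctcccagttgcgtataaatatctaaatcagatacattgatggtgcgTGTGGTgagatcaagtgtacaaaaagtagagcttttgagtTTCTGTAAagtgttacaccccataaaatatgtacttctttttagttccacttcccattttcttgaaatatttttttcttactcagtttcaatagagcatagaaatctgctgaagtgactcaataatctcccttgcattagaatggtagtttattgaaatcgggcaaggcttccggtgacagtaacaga

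FCN1 encodes ficolin-1, a secreted lectin of monocytes that binds microbial sugars (ENSG00000085265.12, chromosome 9, 134903232 to 134917912, minus strand). Its locus had 3236, 2406, 454 and 682 bases under peaks, highest in Kasumi-1 NC and 7.13-fold lower in MV4-11 NC. The largest peak, upstream of the gene and at 134922156 to 134923939 in Kasumi-1 NC, was 1784, 1696, 454 and 398 bases. The promoter window had 444, 0, 0 and 284 bases, so that only the control library of Kasumi-1 and only the knockdown library of MV4-11 had a promoter peak. The 284-base peak stood at the width percentile 1.54 of its list and was narrower than the smallest peak of the MV4-11 NC list (289 bases), so a peak of its width could not have been listed there. With 1 common minimum width and joining gap for all lists it was dropped, and the FCN1 locus of MV4-11 then differed by -56 bases between sh-ANP32B and NC.

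FCGR1A encodes CD64, the high-affinity receptor for immunoglobulin G (ENSG00000150337.14, chromosome 1, 149782671 to 149791675, plus strand). Its locus had 3936, 4837, 7717 and 7081 bases under peaks, more in MV4-11 NC than in Kasumi-1 NC (1.96 times). In the promoter window it had 1029, 1611, 2390 and 2357 bases. The Kasumi-1 NC peak began in intron 2, 749 bases past the start, whereas both MV4-11 peaks covered the start. An upstream peak of 4158 bases in MV4-11 NC (149768343 to 149772500) stood opposite 3 peaks in sh-ANP32B of 1490, 887 and 893 bases. The gene has near-identical copies, FCGR1BP and FCGR1CP, and 75.9% of the 50-base words of its locus and 83.0% of those of its promoter window occur in a copy. How reads that fit more than 1 copy were placed is not given in the sources used here, so the FCGR1A values are uncertain.

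CD68, a glycoprotein of lysosomes and endosomes in macrophages (ENSG00000129226.14, chromosome 17, 7579491 to 7582111, plus strand), had 11461, 11847, 6882 and 6668 bases under peaks, most of any of the genes in Kasumi-1. The promoter window had 3240, 3090, 2372 and 2637 bases, so that all 4 libraries had a wide peak over the gene. Each Kasumi-1 library had 1 peak there, 6786 bases in NC at 7578899 to 7585684 and 6571 bases after knockdown, that also covered the start of MPDU1, and in MV4-11 that stretch held separate peaks, 2372 and 2487 bases in NC and 2637 and 2402 in sh-ANP32B. The knockdown-to-control ratio was 1.03 in Kasumi-1 and 0.969 in MV4-11. The other peaks lay upstream, at the promoter of EIF4A1 (2074, 2131, 2023 and 1629 bases) and, in Kasumi-1 only, at those of SENP3 and TNFSF13. With a flank of 10 kb, which leaves out the SENP3 and TNFSF13 site, the NC libraries differed by -1978 bases and CD68 was not called lower in MV4-11. Counted only for the nearest start, CD68 had 0, 0, 2372 and 2637 bases, because the Kasumi-1 peak over the gene is then assigned to a neighbour.

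**Figure D4:**
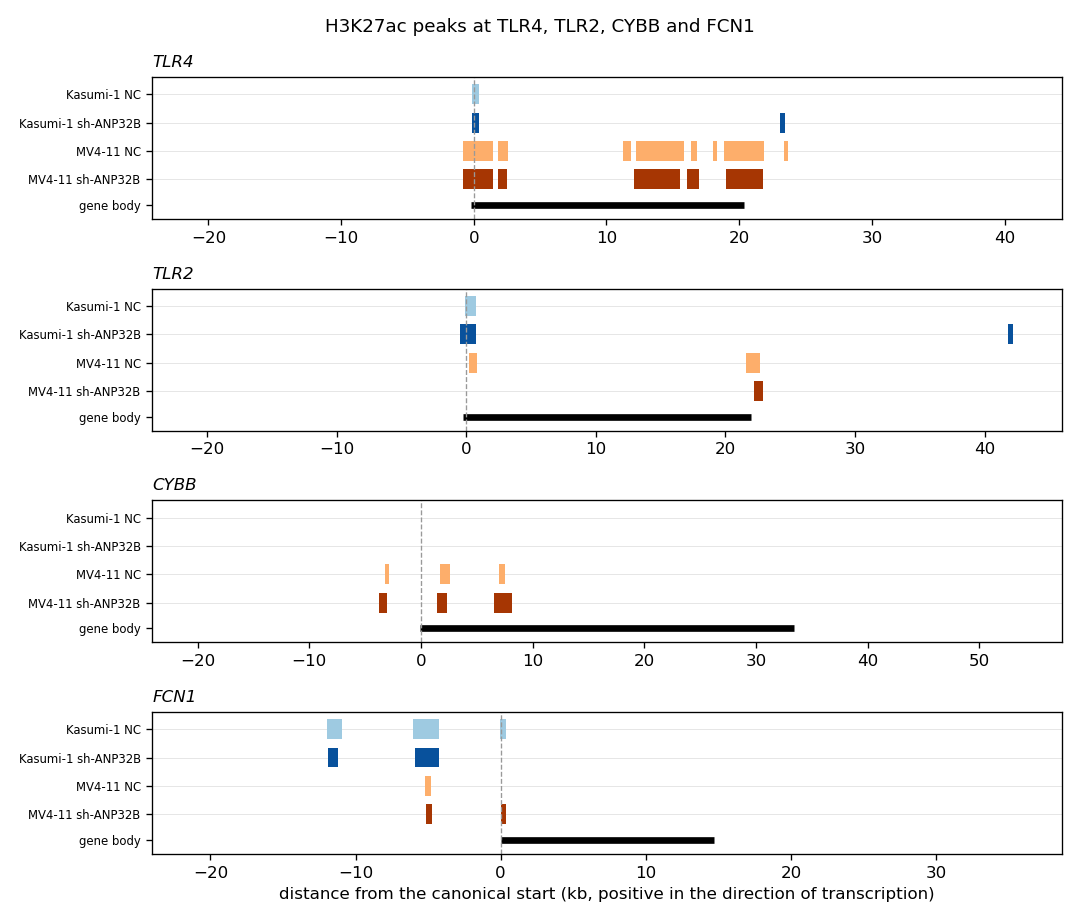
Positions of H3K27ac peaks at the TLR4, TLR2, CYBB and FCN1 loci as distance from the transcription start, with 1 row for each library. TLR4 has 8 and 5 peaks in MV4-11 against 1 and 2 in Kasumi-1, and CYBB has peaks in the MV4-11 libraries only.

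To compare the knockdown with control, a gene was called lower or higher where the bases at its locus differed by at least 1.5 times and the larger value was at least 500 bases. In MV4-11, 5 of the 9 genes were higher (CD14, ITGAM, ITGAX, FCN1 and CYBB), beside 6.25% of all genes tested, and 1 was lower (TLR2), beside 37.9%. Their median log2 ratio was 0.59, against -0.33 over all genes. Each median log2 ratio, here and below, covers the tested genes with peaks at the locus in both libraries. In Kasumi-1, 2 of 8 were higher (TLR2 and TLR4), beside 4.7%, and 0 were lower, beside 7.64%; the median log2 ratio was 0.03, against 0.02 over all genes. The ITGAM and ITGAX values in MV4-11 share sites, and so are not independent of each other. The higher CD14 value came from a peak at the IK and NDUFA2 promoters, and the higher FCN1 value from the narrow peak described above. Counting each peak only for the gene with the nearest start, 4 of the 9 were higher in MV4-11, beside 9.48%, and 1 was lower, beside 38.8%. These shares cover genes with at least 500 bases in the larger library, which leaves out CD14, with 0 bases. Added over the loci, counting shared sites once, the knockdown library of Kasumi-1 had 29370 bases and NC 28186, and those of MV4-11 had 34607 and 33252, a ratio of 1.04 in each line. The covered length of the whole lists had a ratio of 1.03 in Kasumi-1 and 0.825 in MV4-11. Leaving out 1 gene at a time, the MV4-11 ratio over the loci ran from 0.998 without CYBB to 1.12 without TLR4. Over 9 other ways of drawing the locus or filtering peaks, ITGAM and CYBB were called higher in MV4-11 in 8, ITGAX in 7, FCN1 in 5 and CD14 in 4, TLR2 was called lower there in 8, and in Kasumi-1 TLR4 was called higher in 6 and TLR2 in 3.

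**Figure D5:**
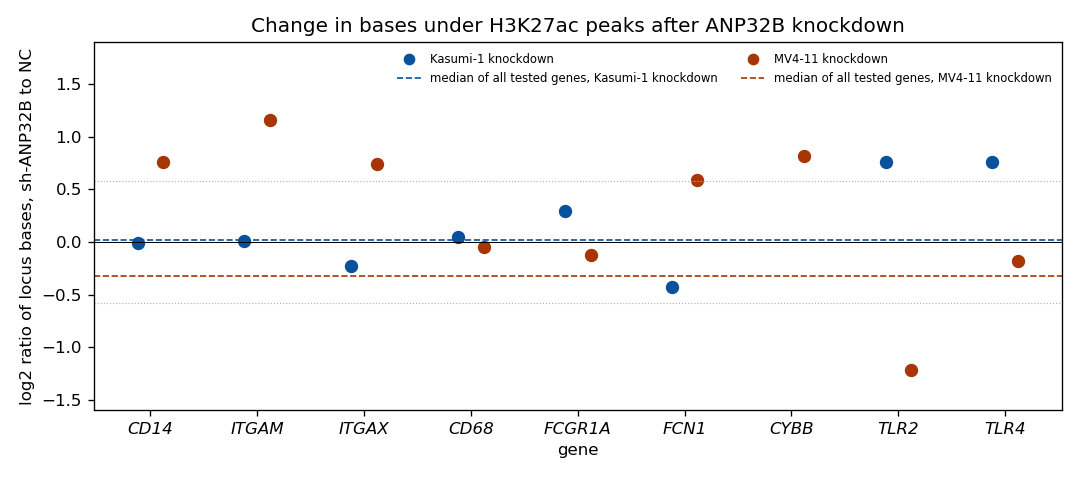
Log2 ratio of bases under peaks at each locus, sh-ANP32B over NC, in Kasumi-1 and MV4-11. The 5 highest MV4-11 values lie at or above 0.59 and TLR2 lies at -1.21, and CYBB has no Kasumi-1 value because it had no peak there.

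Promoter presence differed between NC and sh-ANP32B at FCN1 and TLR2. FCN1 lost its promoter peak in Kasumi-1, beside 6.79% of genes with one in NC, and none of the 9 gained one, beside 1.6%. TLR2 lost its promoter peak in MV4-11, beside 24.4%, and FCN1 gained one, beside 2.45%.

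The same call, a difference of at least 1.5 times, was applied between the NC libraries. MV4-11 was lower than Kasumi-1 at 5 of the 9 loci (CD14, ITGAM, ITGAX, CD68 and FCN1), beside 51.1% of genes tested. It was higher at 4 (FCGR1A, CYBB, TLR2 and TLR4), beside 13.5%. ITGAM and FCN1 had their promoter peak in the Kasumi-1 control library and not in the MV4-11 one, beside 27.9%, and CYBB the reverse, beside 2.66%. The CYBB peak in MV4-11 NC began 1709 bases past the start, and with a window of 1000 bases to each side the MV4-11 libraries had a promoter peak at 5 of the 9 genes each. The bases added over the loci were 1.18 times as many in MV4-11 NC. Leaving out 1 gene at a time, this ratio ran from 0.789 without TLR4 to 1.58 without CD68.

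The peaks of the 9 genes fell on 37 sites, of which 9 had a peak in all 4 libraries, 5 in both Kasumi-1 libraries only, 9 in both MV4-11 libraries only and 8 in a single library. The sites in both MV4-11 libraries only include several at TLR4 and all of those at CYBB. No such counts over all sites of the lists stand beside these, so they cannot be read as particular to the 9 genes. Of the 37, 7 lay nearest the start of another gene, and 8 nearest the start that TLR4 shares with the readthrough gene. Among peaks matched 1 to 1 between NC and sh-ANP32B, those of the 9 genes differed in width by a median of -6 bases in 16 Kasumi-1 pairs, against 25 over 18849 pairs. In MV4-11 the median was 34 bases in 19 pairs, 10 wider and 9 narrower, against -94 over 15364 pairs. The median GC content of the peaks was 56.1%, 54.5%, 43.0% and 43.3%, beside 55.4%, 54.4%, 51.3% and 50.9% for all peaks of the 4 lists. Genes with more peaks weigh more in these medians: TLR4 gave 8 of the 25 peaks in MV4-11 NC and 5 of the 28 in MV4-11 sh-ANP32B.

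For each gene with a promoter peak, the gene with the closest bases under promoter peaks, summed as absolute differences over the 4 libraries, was EXOSC1 for ITGAM, CSRP1 for ITGAX, ZC3H12A for CD68, CEP135 for FCGR1A, EFNB1 for FCN1, EPHB2 for CYBB, ERCC6L for TLR2 and CD101 for TLR4. The summed difference ran from 18 bases for ITGAM to 892 for TLR4. ITGAM and CYBB each had 2 genes at their smallest difference, of which 1 is named.

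The partners of these receptors and of the oxidase were followed as a list of 18 genes, which includes ITGB2, the oxidase subunits and the adaptors of Toll-like receptors. Promoter peaks were at 14, 13, 13 and 12 of them, where all genes have the shares given above. In Kasumi-1, 0 of 14 tested were higher or lower, beside 4.7% and 7.64% of all genes. In MV4-11, 4 of 15 were lower (ITGAL, CYBA, RAC2 and MYD88), beside 37.9%, and 0 higher, beside 6.25%, with a median log2 ratio of -0.10 against -0.33 over all genes. ITGB2, the shared beta chain of ITGAM and ITGAX, had 26300, 25193, 27746 and 32466 bases at its locus. CYBA, the p22phox partner of CYBB, had 3994, 3744, 2133 and 1048 bases, and FCER1G, the signalling chain of FCGR1A, 10218, 9381, 4800 and 4786. LY96, the MD-2 partner of TLR4, had 2103, 2253, 1728 and 1181 bases. TLR6, which pairs with TLR2, had 375 promoter bases in Kasumi-1 control cells and 0 after knockdown, and MYD88, the adaptor of both receptors, had 766 and 0 in MV4-11. Of all genes with a promoter peak in NC, 6.79% had none in sh-ANP32B in Kasumi-1 and 24.4% in MV4-11.

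Other monocyte and macrophage genes were followed as a list of 29. Promoter peaks were at 12, 12, 15 and 13 of them (41.4%, 41.4%, 51.7% and 44.8%), beside 47.7%, 45.3%, 35.8% and 28.6% of all genes. The share was thus below that of all genes in both Kasumi-1 libraries and above it in both MV4-11 libraries. In Kasumi-1, 1 of 20 tested was lower, beside 7.64% of all genes, and 2 were higher, beside 4.7%, with a median log2 ratio of 0.01 against 0.02. In MV4-11, 4 of 21 were lower, beside 37.9%, and 3 higher, beside 6.25%, with a median of -0.17 against -0.33. CSF1R, the macrophage colony-stimulating factor receptor, had 5739, 6804, 5656 and 6422 bases at its locus, LYZ, lysozyme, 3753, 4314, 9186 and 8117, and SPI1, which encodes PU.1, 21235, 20912, 20089 and 17866.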

How the data were processed

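H3K27ac CUT&Tag was analysed in 4 libraries, 1 per group. According to the study's methods, reads were aligned to hg38 with Bowtie2, duplicates were removed with Picard, replicates were merged with samtools and peaks were called on the merged reads at a q-value of 0.01. The submitters' processing notes name Bowtie2 2.4.4 and MACS3 3.0, whereas the methods name MACS2 and another Bowtie2 version. Whether IgG served as control is not stated. The deposited lists hold the position and length of each peak in bases, as the authors called them, with no height, score or read total.

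Bases under peaks were computed in Python 3.11.15 on GENCODE release 44, with overlapping peaks counted once. Loci were gene bodies plus 20 kb, promoter windows 2500 bases to each side, and domains joined peaks not wholly inside a promoter window and up to 12.5 kb apart. Interval counting was tested on simulated data. Sequences came from RefSeq (GRCh38.p14) and hg38. The 9 genes, the lists and the rules were chosen with earlier results of these data known. Named genes were the 9, the list genes that lost or gained a promoter peak, and 7 list genes named whatever they showed. ITGAL, RAC2, S100A9, KLF4, CD86 and CD300E were named after their locus values were seen. Without replicates no test was made. ITGAX has no promoter in the table used. Values of 1 gene of the monocyte list are not reported here.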

Additional observations from a re-analysis of the deposited data

Results flagged for a closer look

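As reported, genes were flagged where the lines went opposite ways in promoter gain or loss (FCN1) or in the call on locus bases (TLR2). Locus bases also differed with opposite signs, without opposite calls, at CD14, ITGAX, CD68, FCGR1A, FCN1 and TLR4. The FCN1 promoter window differed by -444 bases between sh-ANP32B and NC in Kasumi-1 and by 284 bases in MV4-11. The TLR2 locus differed by 581 bases in Kasumi-1 and by -945 bases in MV4-11. The MV4-11 FCN1 value is 1 peak narrower than the smallest peak of the MV4-11 NC list, and with a common minimum width and joining gap 0 promoter peaks were gained and the FCN1 locus differed by -56 bases. TLR2 in Kasumi-1 was called higher in 3 of 9 alternatives. Each value comes from 1 library per group, and how the lines differ was not tested.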

How the results depend on the processing

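No paired analysis was possible because each group had 1 library and the labels give no replicate numbers, and no replicate could be left out. Of the counts, 95 stayed within 1.5 times the reported value and 23 did not. With a flank of 10 kb the Kasumi-1 ratio over the loci was 0.997, 1 gene was higher in Kasumi-1, 3 were lower in MV4-11 NC than in Kasumi-1 NC, and CD14 in MV4-11 differed by -173 bases. With 50 kb the MV4-11 ratio was 0.961, 1 gene was higher in Kasumi-1, 0 were lower and 3 higher in MV4-11, and CD14 differed by -101. With no flank the Kasumi-1 ratio was 0.995 and that between NC libraries 2.50, 1 gene was lower and 1 higher in Kasumi-1, 2 were higher in MV4-11, 1 was lower between NC libraries, and TLR4 in Kasumi-1 differed by -13. With peaks of at least 1000 bases only, promoter peaks of the Kasumi-1 control library were at 3 genes, 0 lost and 1 gained one in Kasumi-1, 0 lost and 0 gained one in MV4-11, the MV4-11 ratio was 0.921, 1 gene was lower in Kasumi-1 and 1 higher in MV4-11. With the 20000 widest peaks of each list, 0 lost a promoter peak in Kasumi-1, 0 gained one in MV4-11, 0 were higher in Kasumi-1, TLR4 there differed by -13 and FCN1 in MV4-11 by -56. With a common minimum width and joining gap, 0 gained one in MV4-11 and FCN1 differed by -56. With each peak given to the nearest start, the ratio between NC libraries was 1.95, 1 gene was higher in Kasumi-1, 3 were lower between NC libraries and CD68 differed by 2372. Counting peaks by their centre, 1 was higher in Kasumi-1. Scaled to the covered length, the MV4-11 ratio was 1.26, and differences under the call threshold turned direction at TLR4 (911 bases), FCGR1A (1018) and CD68 (1410) in MV4-11 and at ITGAM (-64) in Kasumi-1. A promoter window of 1000 bases to each side, and 1 between it and the reported width, left 5 genes with a promoter peak in each MV4-11 library. Except where the setting itself removes peaks or bases, the cause was not tested. Unknown depth limits every absence of a peak.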

Other observations

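Within the monocyte list, the genes called higher in MV4-11 sh-ANP32B included CD86 and CD300E, named after their values were seen. CD86, a co-stimulatory ligand, had 2739 bases at its locus in MV4-11 NC and 4191 in sh-ANP32B. CD300E, a receptor of monocytes, had 1774 and 6641. Those called lower in MV4-11 were S100A9, KLF4, FCGR2A and CSTA. In MV4-11, promoter peaks were lost at CD36, a scavenger receptor (371 bases to 0), and at FCGR2A, an Fc receptor (425 to 0), beside 24.4% of all genes with one in NC. In Kasumi-1, 1 was lost at IRF8, a transcription factor of the monocyte lineage (357 to 0), beside 6.79%. The 357 bases equal the narrowest peak of the Kasumi-1 NC list. Locus bases were not lower at IRF8 in Kasumi-1 (21998 and 22968) or at CD36 in MV4-11 (1128 and 1238), and were 1165 and 0 at FCGR2A in MV4-11. CSTA gained a promoter peak in Kasumi-1 (0 to 374), beside 1.6% of genes without one in NC. FCGR2A has near-identical relatives, which makes its value uncertain.

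At the copies of FCGR1A, peaks were counted in the gene body plus 2500 bases to each side, a narrower region than the locus used above. FCGR1BP had 2535, 1797, 3793 and 4352 bases under peaks in the 4 libraries, and FCGR1CP 1943, 2497, 4314 and 3485. These values are therefore not comparable with the FCGR1A locus values.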
